A study of Mus musculus with 12 samples.

Results

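The organic ion and bile acid uptake carriers are membrane proteins of 4 gene families, named Slco, Slc22a, Slc10a and Slc47a. Every probe whose RefSeq accession mapped to a gene symbol of these families was taken, which gave 53 of the 41174 probes and 42 of the 16535 named genes on the array. The RefSeq table holds 51 such genes, and the array matched 12 of 15 for Slco, 23 of 26 for Slc22a, 6 of 8 for Slc10a and 1 of 2 for Slc47a. Slco1b2, a bile acid and drug carrier of the hepatocyte, is among the 9 genes without a matched probe and was not analysed here. The other 8 are Slc10a4l, Slc10a5, Slc22a13b, Slc22a15, Slc22a27, Slc47a2, Slco6b1 and Slco6d1.

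Liver and esophagus RNA of 6 male mice was hybridised on 12 Agilent arrays, 1 array per organ and mouse. The 3 TG mice carried 1 tetO-Nanog allele at the Col1a1 locus and 1 rtTA allele at Rosa26 (Col1a1tetO-Nanog/+;Rosa26rtTA/+), so that doxycycline lets rtTA switch on the pluripotency factor Nanog. The 3 CTR mice carried the rtTA allele alone (Col1a1+/+;Rosa26rtTA/+). All 6 were about 8 months old, had a mixed 129Sv/C57BL6 background and drank doxycycline at 0.2 mg/ml in water with 7.5% sucrose for 48 h, and the series' title asks about Nanog and mitotic genes in layered epithelia, not about carriers. The rtTA allele lies in a locus that is open in most tissues, so the transgene is not confined by its promoter to 1 cell type.

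Uptake carriers bring bile acids, drugs, hormones and metabolites from blood into cells. In the liver, Ntcp (Slc10a1) takes up bile salts with sodium, the Oatp proteins (Slco genes) take up organic anions without it and Mate1 (Slc47a1) passes organic cations on to bile in exchange for protons. Other members work chiefly in kidney (the urate and organic anion carriers of Slc22a), ileum (Slc10a2) or widely (the carnitine carrier Slc22a5). The mouse esophagus is a layered epithelium with a wall of striated muscle.

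The upstream sequences of some carriers with large differences between the organs are shown, and their part in these differences was not tested. They are Slc10a1 with both of its starts, Slco1a1, Slc22a28 and Slc22a30 for the liver, and Slc10a6 and Slco4a1 (first start alone) for the esophagus. Each runs 5′ to 3′ on the strand of the gene, from 250 bases before to 50 bases after the start (RefSeq, GRCm38.p6). Capitals mark matches, on either strand, to any of 5 motifs: CAAAGTCC (an HNF4 core), TTGCNNAA (C/EBP), TGANTCA (AP-1), TATAAA (the TATA box) and the FXR inverted repeat. TGANTCA reads the same on both strands, and no match in a carrier promoter overlapped a match to another motif. Slc10a2 differed by more than Slc22a30 but is not shown, and its promoter has a TGANTCA match and no TTGCNNAA match.
Slc10a1, first start (chr12:80968656-80968955, minus strand): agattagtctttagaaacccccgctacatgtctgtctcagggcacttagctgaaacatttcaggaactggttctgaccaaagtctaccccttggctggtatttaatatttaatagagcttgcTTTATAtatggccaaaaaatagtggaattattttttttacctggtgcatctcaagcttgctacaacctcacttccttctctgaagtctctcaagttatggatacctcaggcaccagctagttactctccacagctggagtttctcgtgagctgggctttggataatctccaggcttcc
Slc10a1, second start (chr12:80968030-80968329, minus strand): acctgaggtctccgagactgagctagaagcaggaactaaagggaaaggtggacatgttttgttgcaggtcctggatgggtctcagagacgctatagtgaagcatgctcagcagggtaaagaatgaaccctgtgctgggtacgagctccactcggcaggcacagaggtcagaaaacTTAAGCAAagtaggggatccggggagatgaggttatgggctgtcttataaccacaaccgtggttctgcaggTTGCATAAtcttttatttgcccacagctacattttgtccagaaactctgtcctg
Slco1a1 (chr6:141946913-141947212, minus strand): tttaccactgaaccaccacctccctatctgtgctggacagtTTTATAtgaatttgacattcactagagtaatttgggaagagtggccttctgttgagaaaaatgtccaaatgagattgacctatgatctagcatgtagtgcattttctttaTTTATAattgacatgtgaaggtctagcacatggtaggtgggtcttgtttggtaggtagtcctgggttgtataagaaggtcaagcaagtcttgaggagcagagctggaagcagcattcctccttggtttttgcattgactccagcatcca
Slc22a28 (chr19:8131933-8132232, minus strand): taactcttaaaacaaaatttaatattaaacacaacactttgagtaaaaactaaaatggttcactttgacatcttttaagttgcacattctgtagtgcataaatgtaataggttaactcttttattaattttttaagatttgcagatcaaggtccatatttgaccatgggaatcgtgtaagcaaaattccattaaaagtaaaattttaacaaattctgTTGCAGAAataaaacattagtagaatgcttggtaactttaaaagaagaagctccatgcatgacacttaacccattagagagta
Slc22a30 (chr19:8405056-8405355, minus strand): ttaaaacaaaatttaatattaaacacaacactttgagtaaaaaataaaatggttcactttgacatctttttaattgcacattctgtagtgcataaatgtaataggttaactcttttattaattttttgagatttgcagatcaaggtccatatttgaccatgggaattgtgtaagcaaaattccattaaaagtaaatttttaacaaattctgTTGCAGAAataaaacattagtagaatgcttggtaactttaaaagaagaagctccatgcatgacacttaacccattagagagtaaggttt
Slc10a6 (chr5:103629354-103629653, minus strand): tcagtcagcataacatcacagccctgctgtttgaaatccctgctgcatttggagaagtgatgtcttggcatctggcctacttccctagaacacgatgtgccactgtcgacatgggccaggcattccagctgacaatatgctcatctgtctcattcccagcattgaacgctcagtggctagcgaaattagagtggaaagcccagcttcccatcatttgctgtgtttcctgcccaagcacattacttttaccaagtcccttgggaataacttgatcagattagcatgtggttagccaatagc
Slco4a1 (chr2:180455995-180456294, plus strand): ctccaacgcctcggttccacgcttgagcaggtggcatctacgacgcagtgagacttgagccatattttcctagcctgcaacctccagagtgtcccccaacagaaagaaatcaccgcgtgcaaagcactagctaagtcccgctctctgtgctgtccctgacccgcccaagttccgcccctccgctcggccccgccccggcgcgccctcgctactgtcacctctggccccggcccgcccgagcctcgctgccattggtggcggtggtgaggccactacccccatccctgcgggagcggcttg

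Promoters were found for 35 of the 42 genes. TTGCNNAA was in 5 of the 14 genes called higher in CTR liver (Slc10a1, Slc22a28, Slc22a30, Slc22a6 and Slco1a5), in 0 of the 3 called higher in esophagus and in 10.8% of all 32851 promoters. TATAAA was in 4 of the 14 and 0 of the 3, against 13.6% of all promoters. On the strand of the gene it began at -29 in Slco2a1 and at -196 and -97 in Slco1a5. On the opposite strand it lay at -128 in Slc10a1 and at -209 and -99 in Slco1a1. Whether any of these works as a TATA box was not tested. TGANTCA was in 3 of the 14 and 0 of the 3, against 7.81%. CAAAGTCC, in 1.42% of all promoters, and the FXR inverted repeat, in 0.0396%, were in 0 of the 14 and 0 of the 3. These counts describe letters in short windows, the motifs were picked with the organ differences known, and no test was made. A carrier gene counted when any of its promoters matched, while the shares of all promoters count single promoters. Genes with several promoters, such as Slc10a1, Slco1a5 and Slco2b1, thus had more chances of a match, and counts and shares are not like for like. The promoters of Slc22a28 and Slc22a30 were 98.0% identical (288 of 294 bases with a shift of 6 bases), and Slc22a29 between them matched Slc22a28 in 66.0% and Slc22a30 in 68.1%.

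The share of all probes above background was lowest on liver CTR3 (56.4%) and highest on liver TG3 (81.8%), and precision is limited by how many arrays there are. Of the 53 carrier probes 34 were above background on liver CTR3 and 46 on liver TG3. Across genes, r was 0.939 to 0.986 between arrays of 1 organ and 0.776 to 0.817 between liver and esophagus arrays. Summed linear levels of 11 hepatocyte markers ran from 4800 to 5400 in TG livers and 4380 to 5120 in CTR livers, and from 1.36 to 3.18 in TG esophagi and 2.84 to 3.75 in CTR esophagi, while 11 keratinocyte markers ran from 1090 to 1380 in TG and 1080 to 1400 in CTR esophagi. Nanog itself had a probe that stayed below the background criterion on all 12 arrays. In the clock gene Per2, livers TG2 and CTR1 stood apart at -1.73 and -1.60, against 0.66 to 1.27 on the other livers, and esophagi TG1 and TG2 at -2.92 and -2.46, against -0.73 to 0.26 on the other esophagi. Animal TG1 thus had a low esophagus and a liver among the higher ones, and animal CTR1 a low liver and an esophagus that was not low. Whether the labels of these samples are right was not settled, and results were also computed without livers TG2 and CTR1 and without esophagi TG1 and CTR1.

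Levels below are normalized log2 signals, the log2 of the scanner's processed signal minus the 75th percentile of its array, so that 0 is a bright probe. Of the 42 genes, 22 were above background on all 12 arrays, 17 on some and 3 (Slc22a22, Slco1a6 and Slco4c1) on none. Genes above background on all 3 arrays of a group numbered 28 in TG liver, 27 in CTR liver, 25 in TG esophagus and 28 in CTR esophagus. A gene entered a test when 1 or more of the groups compared had it above background on all 3 arrays, which 32 genes met in some comparison. The 10 others were Slc22a2, Slc22a3, Slc22a14, Slc22a22, Slc22a29, Slco1a6, Slco1c1, Slco4c1, Slco5a1 and Slco6c1. Slc22a3 (Oct3, NM_011395), an organic cation carrier, was above background on 1 of 3 TG livers, 1 of 3 CTR livers, 0 of 3 TG esophagi and 2 of 3 CTR esophagi. Its levels were -5.96, -6.73 and -3.66 in TG livers, -5.39, -4.26 and -4.15 in CTR livers, -5.66, -5.46 and -5.66 in TG esophagi and -5.56, -5.46 and -5.25 in CTR esophagi.

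The first question is how the carriers differ between liver and esophagus. In TG mice 20 of 31 tested carriers were called higher and 5 lower in liver (limma, adjusted p under 0.05), and in CTR mice 17 and 5 of 31. Among all genes tested 38.9% were called higher and 24.3% lower in TG liver, 63.3% together, and 34.6% and 27.8% in CTR liver, 62.4% together. The 17 and the 5 called in CTR mice were called in the same direction in TG mice, and Slc22a12, Slc22a13 and Slc22a17 were called in TG mice alone, without a called difference between the genotypes. The organs did not overlap for 21 carriers with liver higher and 5 lower in TG mice, against 71.1% of all genes, and for 17 and 5 in CTR mice, against 68.3%. An unadjusted p under 0.05 was found for 26 carriers in TG mice (66.9% of all genes) and 24 in CTR mice (66.1%). Some carriers entered the test only because liver or esophagus was bright; of those above background in both organs, 15 of 22 were called higher and 2 lower in TG liver, and 14 and 2 of 24 in CTR liver, against 62.4% and 63.8% of such genes called in either direction. The median difference was 1.74 in TG and 1.40 in CTR mice for the carriers and 0.36 and 0.14 for all genes tested, where quantile normalization gave 0.08 and 0.04. Organ and RNA extraction method cannot be told apart here, and in whole tissue fewer cells of a type and less RNA per cell cannot be told apart.

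**Figure D1:**
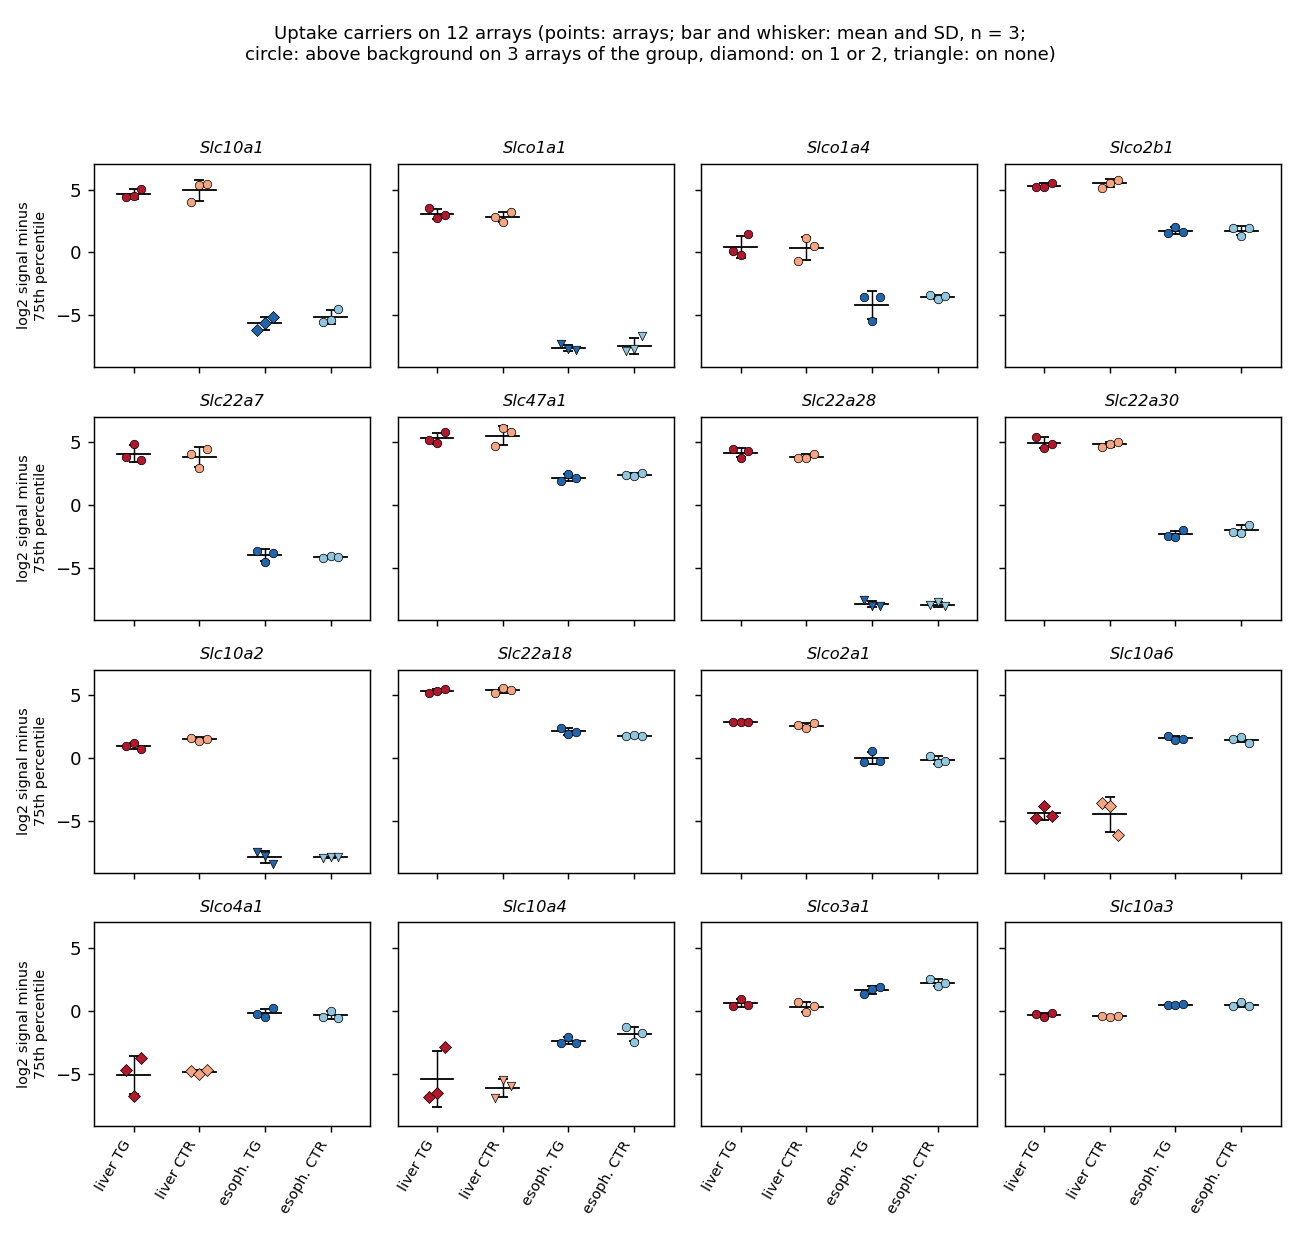
Normalized log2 signal (vertical axis) of 16 carriers on each of the 12 arrays, by group from left to right: liver TG, liver CTR, esophagus TG, esophagus CTR. Points are arrays, bars and whiskers the mean and SD of 3, and diamonds and triangles mark groups with 1 or 2 arrays or none above background; the first 11 genes lie higher in liver and the last 5 higher in esophagus.

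The carriers of bile acids and organic anions in the hepatocyte were higher in liver in all 5 of the genes tested, out of 6 listed, with a median difference of 8.08 in TG and 7.96 in CTR mice. Slc10a1 (Ntcp, NM_011387) had levels of 4.42, 4.45 and 5.06 in TG livers against -6.18, -5.64 and -5.13 in TG esophagi, and of 3.98, 5.39 and 5.47 in CTR livers against -5.57, -5.41 and -4.55 in CTR esophagi. Every liver lay above every esophagus, and the esophagus signal was near background, being above it on 2 of the 3 TG arrays. The difference was 10.29 (SE 0.44) in TG and 10.13 (SE 0.44) in CTR mice (limma adjusted p = 1.46e-08 and 1.63e-08). On the slides that held both organs it was 10.59 and 9.58 in TG and 10.96 and 8.53 in CTR mice. Among the alternatives run, it was as low as 7.41 in TG and 7.76 in CTR mice.

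Slco1a1 (Oatp1a1, NM_013797), an uptake carrier of bile acids and steroid conjugates, had levels of 3.50, 2.69 and 2.95 in TG livers and 2.77, 2.41 and 3.19 in CTR livers. It was not well above background on any esophagus, with measured means of -7.60 in TG and -7.44 in CTR esophagi. Against the dimmest detected signal of each esophagus array, liver was 524-fold higher in TG mice and 466-fold in CTR mice. These folds depend on how dim signals are handled. Limma tested the measured difference instead, 10.65 in TG (adjusted p = 1.71e-09) and 10.23 in CTR mice (adjusted p = 2.41e-09). Slco1a1 entered that test through liver alone.

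Slc22a7 (Oat2, NM_144856), an organic anion carrier, had levels of 3.83, 4.89 and 3.62 in TG livers against -3.61, -4.50 and -3.79 in TG esophagi, and of 4.06, 2.97 and 4.49 in CTR livers against -4.20, -4.05 and -4.12 in CTR esophagi. The organs did not overlap, at 271-fold in TG (difference 8.08, SE 0.43) and 249-fold in CTR mice (7.96, SE 0.43). Among the alternatives run, this difference was as low as 6.37 in TG and 6.13 in CTR mice. Slco1a4 (Oatp1a4, NM_030687), which also serves brain capillaries, had levels of 0.07, -0.24 and 1.46 in TG livers against -3.57, -5.49 and -3.53 in TG esophagi, and of -0.66, 1.11 and 0.48 in CTR livers against -3.42, -3.70 and -3.48 in CTR esophagi. Its livers spread by SDs of 0.90 in TG and 0.90 in CTR, and the difference was 4.62 (SE 0.62) in TG and 3.84 (SE 0.62) in CTR mice. Slco2b1 (NM_175316), an Oatp found in many organs, was above background in esophagus, with 5.17, 5.24 and 5.53 in TG livers against 1.55, 2.04 and 1.60 in TG esophagi, and 5.13, 5.55 and 5.76 in CTR livers against 1.94, 1.30 and 1.93 in CTR esophagi. Liver was 12-fold higher in TG and 13.5-fold higher in CTR mice.

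Slc47a1 (Mate1, NM_026183), which exports organic cations to bile, had levels of 5.21, 4.98 and 5.81 in TG livers against 1.95, 2.45 and 2.19 in TG esophagi, and of 4.69, 6.15 and 5.80 in CTR livers against 2.41, 2.30 and 2.56 in CTR esophagi. It was 8.81-fold higher in liver in TG and 8.70-fold in CTR mice (differences of 3.14 and 3.12, SE 0.35 each).

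Slc22a19, Slc22a26, Slc22a27, Slc22a28, Slc22a29, Slc22a30, Slc22a8 and Slc22a6 lie near each other on chromosome 19, with at most 3 other genes between neighbours, and among those tested the organ difference ran over a wide range. Slc22a28 (NM_001013820), an organic anion transporter relative, had levels of 4.43, 3.75 and 4.30 in TG livers and 3.73, 3.75 and 4.06 in CTR livers and was not above background on any esophagus. Against the dimmest detected signal of each esophagus array, liver was 1130-fold higher in TG and 970-fold in CTR mice. Limma tested the measured difference instead, 12.02 in TG (adjusted p = 5.16e-11) and 11.77 in CTR mice (adjusted p = 7.02e-11). Slc22a28 entered that test through liver alone. Slc22a30 (NM_177002), whose promoter is nearly the same, had levels of 5.45, 4.58 and 4.86 in TG livers against -2.42, -2.51 and -2.00 in TG esophagi, and of 4.67, 4.85 and 5.03 in CTR livers against -2.15, -2.24 and -1.54 in CTR esophagi. The organs lay far apart in both genotypes, at 7.28 (SE 0.27) in TG and 6.83 (SE 0.27) in CTR mice, and signal shared between the copies was not tested. Slc22a26 (NM_146232) differed by 2.61 (SE 0.53) in TG and 1.85 (SE 0.53) in CTR mice and Slc22a6 (Oat1, NM_008766), the renal organic anion exchanger, by 1.70 (SE 0.43) and 1.40 (SE 0.43). Slc22a8 (Oat3, NM_031194), its partner in kidney, was at 1.38 (SE 0.67) and 0.52 (SE 0.67) and did not pass in either genotype (adjusted p = 0.0942 and 0.523).

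Slc10a2 (Asbt, NM_011388), the sodium-driven bile acid carrier of the ileum that is also found in bile duct cells, was bright in liver, with 0.93, 1.17 and 0.75 in TG livers and 1.64, 1.37 and 1.55 in CTR livers. It was not above background on any esophagus. Against the dimmest detected signal of each esophagus array, liver was 122-fold higher in TG and 193-fold in CTR mice. Slc10a2 entered the limma test through liver alone. That test was of the measured difference, 8.85 in TG (adjusted p = 2.8e-10) and 9.43 in CTR mice (adjusted p = 2.07e-10). Among the alternatives run, the difference was as low as 4.45 in TG and 4.85 in CTR mice. Summed levels of 6 bile duct markers ran from 7.84 to 14.4 in TG livers and 8.05 to 17.1 in CTR livers, and from 3.57 to 3.99 in TG esophagi and 2.30 to 8.01 in CTR esophagi, and their part in the Slc10a2 signal was not tested.

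Of the 5 Slc10a genes tested besides Slc10a1, Slc10a2 was called higher in liver, Slc10a3, Slc10a4 and Slc10a6 were called lower, and Slc10a7 did not pass, in each genotype. Slc10a6 (Soat, NM_029415), a carrier of sulfated steroids, had levels of -4.75, -3.83 and -4.63 in TG livers against 1.74, 1.41 and 1.54 in TG esophagi, and of -3.55, -3.81 and -6.11 in CTR livers against 1.54, 1.67 and 1.22 in CTR esophagi. All esophagi lay above all livers, and the difference was -5.97 (SE 0.56) in TG and -5.97 (SE 0.56) in CTR mice (limma adjusted p = 5.86e-06 and 5.8e-06). Only 2 of 3 livers in each genotype were above background, and the size was -4.21 in TG and -4.07 in CTR mice with the normexp background correction. Slc10a4 (NM_173403), a relative found in nerve endings, had levels of -6.88, -6.55 and -2.87 in TG livers against -2.52, -2.07 and -2.57 in TG esophagi, and of -6.93, -5.48 and -5.95 in CTR livers against -1.32, -2.44 and -1.77 in CTR esophagi. Liver TG3 alone came near the esophagi, and no CTR liver was above background. Against the dimmest detected signal of each CTR liver array, CTR esophagus was 8.49-fold higher. In CTR mice Slc10a4 entered the limma test through esophagus alone. That test was of the measured difference of -4.28 (adjusted p = 0.00162). Among the alternatives run, the smallest difference in CTR mice was -1.29. In TG mice the difference was -3.04 (SE 0.88, adjusted p = 0.0116), with limma, it was -2.48 with adjusted p = 0.0526 without livers TG2 and CTR1, -4.32 without livers TG3 and CTR3, and -0.68 with the normexp background correction (adjusted p = 0.0444). A second probe of Slc10a4 was above background on 1 of 3 TG and 0 of 3 CTR livers and on 0 of 3 TG and 1 of 3 CTR esophagi, was not tested, and had means of -5.72 in TG livers against -6.23 in TG esophagi and -6.83 in CTR livers against -5.95 in CTR esophagi, so the difference rests on 1 probe. Slc10a3 (NM_145406), a relative without a known substrate, had levels of -0.21, -0.48 and -0.20 in TG livers against 0.47, 0.46 and 0.56 in TG esophagi, and of -0.43, -0.46 and -0.41 in CTR livers against 0.37, 0.69 and 0.37 in CTR esophagi. Esophagus was 1.74-fold higher in TG and 1.87-fold higher in CTR mice, without overlap.

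Slco genes beyond the hepatocyte set split between the organs, with 2 called higher and 2 lower in liver of 4 tested in each genotype, out of 9 on the array. Among those called higher, Slco1a5 differed by 1.87 (SE 0.33) in TG and 1.73 (SE 0.33) in CTR mice on its brighter probe. Its dimmer second probe was at -0.23 (SE 0.74) in CTR mice and was not tested between the organs in TG mice. Slco2a1 (NM_033314), the prostaglandin transporter, had levels of 2.84, 2.88 and 2.90 in TG livers against -0.28, 0.53 and -0.22 in TG esophagi, and of 2.60, 2.36 and 2.79 in CTR livers against 0.19, -0.39 and -0.21 in CTR esophagi. Liver was higher by 2.87 (SE 0.24) in TG and 2.72 (SE 0.24) in CTR mice, and summed levels of 8 endothelial markers were 11.9 to 30.6 in TG and 23.2 to 31.4 in CTR livers against 5.16 to 6.63 in TG and 4.13 to 6.71 in CTR esophagi, whose part in the difference was not tested. Slco4a1 (NM_148933), an Oatp of many tissues, had levels of -4.72, -6.74 and -3.77 in TG livers against -0.24, -0.45 and 0.20 in TG esophagi, and of -4.75, -5.00 and -4.73 in CTR livers against -0.46, 0.01 and -0.60 in CTR esophagi. All livers were lower, with a difference of -4.91 (SE 0.58) in TG and -4.48 (SE 0.58) in CTR mice, but only 2 of 3 livers in each genotype were above background, so no exact fold is given. Slco3a1 (NM_023908), a widely expressed Oatp, had levels of 0.38, 0.97 and 0.46 in TG livers against 1.34, 1.74 and 1.90 in TG esophagi, and of 0.71, -0.09 and 0.41 in CTR livers against 2.53, 2.00 and 2.19 in CTR esophagi. Esophagus was 2.08-fold higher in TG and 3.73-fold higher in CTR mice, and again the organs did not overlap.

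The carnitine carriers differed less. Slc22a5 (Octn2, NM_011396), the main carnitine carrier, had levels of 0.60, 0.37 and 0.56 in TG livers against -0.63, -1.07 and -1.17 in TG esophagi, and of 0.59, 0.76 and 0.01 in CTR livers against -0.85, -1.03 and -0.92 in CTR esophagi. Liver was higher without overlap on this brighter probe, by 2.76-fold in TG and 2.61-fold in CTR mice. The second probe of Slc22a5 differed by 0.34 (SE 0.21) in TG mice, which did not pass (limma adjusted p = 0.174), and by 0.61 (SE 0.21) in CTR mice (adjusted p = 0.0247). Slc22a16, a carnitine carrier first known from testis, was 3.30-fold and 3.01-fold higher in TG and CTR liver. The neighbours of Slc22a5 on chromosome 11 did not pass: Slc22a21 differed by 0.08 (SE 0.20) in TG and 0.18 (SE 0.20) in CTR mice and Slc22a4, the ergothioneine carrier, by 0.46 (SE 0.26) and 0.65 (SE 0.26). Slc22a18 (NM_001042760), which lies in an imprinted region of chromosome 7, had levels of 5.18, 5.31 and 5.51 in TG livers against 2.43, 1.89 and 2.10 in TG esophagi, and of 5.17, 5.57 and 5.44 in CTR livers against 1.73, 1.87 and 1.78 in CTR esophagi. Liver was 9.17-fold higher in TG and 12.1-fold higher in CTR mice. Slc22a17, a lipocalin receptor, had probes of opposite direction between the organs, and its value rests on the brighter probe.

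**Figure D2:**
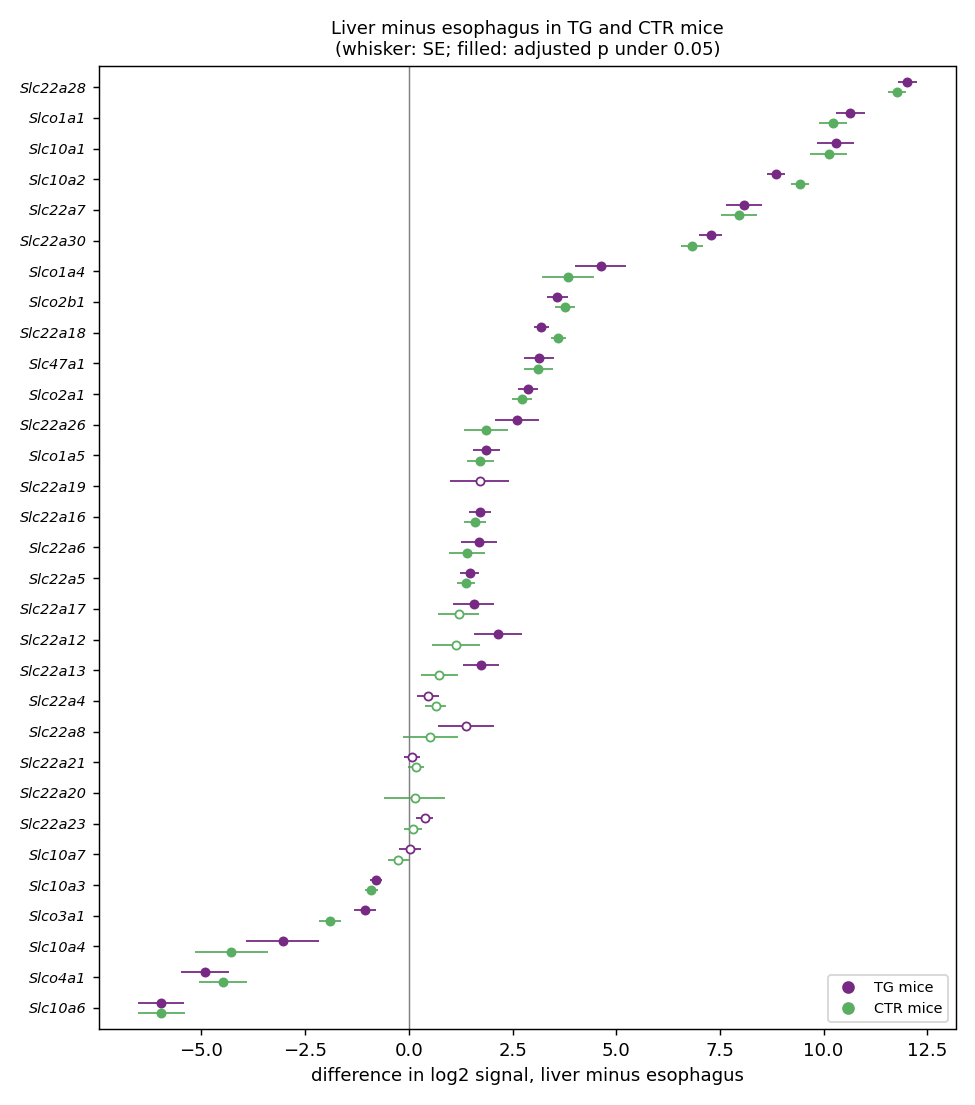
Difference in log2 signal between liver and esophagus (horizontal axis) for the tested carriers reported, with TG mice above CTR mice in each row. Points are limma estimates, whiskers the SE, and filled points have adjusted p under 0.05. Points of Slc22a28, Slco1a1 and Slc10a2 rest on esophagus signals not above background. Those of Slc10a4, Slc10a6 and Slco4a1 rest on liver signals above it on at most 2 of 3 arrays. In TG mice, carriers such as Slc10a1 and Slc22a26 were above it on 2 of 3 esophagi. Such points show a direction and not an exact size.

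The sizes of the widest differences depended on how dim signals were handled, and the folds given against the dimmest detected signal are not lower bounds. With a normexp background correction the difference of Slc22a28 was 7.94 in TG and 7.42 in CTR mice, that of Slco1a1 was 6.77 and 6.12, and that of Slco4a1 was -2.51 and -2.48. These 3 stayed past the threshold in the same direction under each alternative in which they were tested, and the strict filter on dim probes did not test them.

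Genes that make, export and sense bile acids differed between the organs as well. Of all genes tested, 63.3% in TG and 62.4% in CTR mice were called in either direction. Of 15 genes of bile acid synthesis and conjugation 14 were called higher in liver in TG and 14 in CTR mice, and 0 lower; Baat, which joins bile acids to taurine, differed by 12.92 (SE 0.32) and Amacr, a racemase of side-chain shortening, by 4.11 (SE 0.15) in CTR mice. Of the hepatocyte export pumps, 12 of 14 were called higher and 2 lower in TG liver and 11 and 1 in CTR liver, with the bile salt pump Abcb11 at 9.09 (SE 0.20) and the conjugate pump Abcc2 at 11.00 (SE 0.25) in CTR mice. Sensors and their partners were higher in 14 and lower in 1 of 16 in each genotype, with the bile acid receptor Nr1h4 (Fxr) at 8.59 (SE 0.21) and Ppara, a fatty acid receptor, at 4.60 (SE 0.22) in CTR mice.

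Of 9 carnitine genes 7 were called higher and 2 lower in liver in each genotype, and Bbox1, which makes carnitine, differed by 7.33 (SE 0.46) in CTR mice. Prostaglandin genes were called lower in 4 of 6 in TG and 5 of 7 in CTR liver and higher in 0, opposite to the transporter Slco2a1, with Ptgr1, a prostaglandin reductase, at -6.16 (SE 0.18) and the synthase Ptges at -3.42 (SE 0.31) in CTR mice. Of 7 scaffold and trafficking genes 2 were called higher and 3 lower in TG liver and 3 and 3 in CTR liver. Of all genes tested, 38.9% were called higher and 24.3% lower in TG liver, and 34.6% and 27.8% in CTR liver. Pdzk1, an adaptor that binds several of the carriers, was at 8.88 (SE 0.20) in CTR mice. Emb, a partner of monocarboxylate carriers, was at -6.00 (SE 0.29).

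The second question is what the transgene and doxycycline did to the carriers in liver, set against doxycycline with the activator alone. Of 28 carriers tested 0 were called by limma at adjusted p under 0.05, as were 0% of all 21247 genes tested, and 1 had an unadjusted p under 0.05, against 8.33% of all genes. The TG mean was higher for 20 of the 28 and for 14122 of the 21247 genes, and the median difference was 0.13 for the carriers and 0.13 for all genes. That common shift was 0.02 with quantile normalization. Groups did not overlap for 2 carriers with TG higher (Slc22a13 and Slco2a1) and 1 with TG lower (Slc10a2), against 11.3% of all genes.

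Slc10a2 had the smallest p among the carriers in liver. Its TG levels of 0.93, 1.17 and 0.75 all lay below its CTR levels of 1.64, 1.37 and 1.55, with means of 0.95 ± 0.21 and 1.52 ± 0.13 (SD, n = 3 each). The difference was -0.57 (SE 0.22, 95% interval -1.06 to -0.08) and did not pass (limma, adjusted p = 0.59). On the slide with TG3 and CTR2 it was -0.62.

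Slc22a13 (NM_133980), whose human counterpart carries nicotinate and urate, had levels of -1.97, -2.42 and -1.69 in TG livers and -2.69, -3.13 and -2.96 in CTR livers. The TG livers were all higher, and the difference of 0.90 (SE 0.43, 95% interval -0.05 to 1.85) did not pass (limma, adjusted p = 0.604). It was 0.53 with normexp and 0.44 in the authors' deposited table of log2 values.

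Slc22a6 had levels of -1.57, -1.45 and -1.22 in TG livers and -3.12, -1.35 and -1.90 in CTR livers. CTR2 lay among the TG livers, and the difference was 0.71 (SE 0.42, adjusted p = 0.633), or 0.21 without CTR1. Slc22a12 (Urat1, NM_009203), the renal urate exchanger, had levels of 3.08, 3.45 and 2.76 in TG livers and 3.38, 2.63 and 0.58 in CTR livers. Liver CTR3 alone was low, and the difference of 0.90 (SE 0.57, adjusted p = 0.644, limma) was 0.09 without it. The organic anion and urate group also holds Slc22a28 and Slc22a30, which were bright in liver. Over all genes tested the TG mean was higher for 14122 of 21247 (median difference 0.13). In this group it was higher for all 8 genes tested (median difference 0.48), and 0 of them passed. Summed levels of 5 kidney tubule markers were 1.54 to 2.19 in TG and 1.30 to 1.99 in CTR livers, and their part in this was not tested.

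The other carriers named above that were tested between TG and CTR livers did not pass, and apart from Slco2a1 their groups overlapped. Slc10a4, Slc10a6, Slco4a1 and Slc22a3 were too dim in liver to be tested there. Slc10a1 differed by -0.31 (SE 0.44, 95% interval -1.27 to 0.66) between TG and CTR livers. Slco1a1 was at 0.26 (SE 0.34), Slco2a1 at 0.29 (SE 0.24), Slc22a7 at 0.28 (SE 0.42), Slco1a4 at 0.12 (SE 0.61), Slc22a5 at 0.05 (SE 0.22), Slco2b1 at -0.17 (SE 0.24) and Slc47a1 at -0.21 (SE 0.35). The 95% interval stayed within a log2 difference of 1 in either direction for 14 of the 28 carriers, so larger changes are not shown to be absent for the other 14.

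In esophagus 0 of 28 carriers were called by limma, as were 0% of 23208 genes, and 1 carrier had an unadjusted p under 0.05, against 3.98% of all genes. The TG mean was higher for 13 of the 28, and the median difference was -0.03 for the carriers and -0.00 for all genes. Groups did not overlap for 1 carrier in each direction, against 12.5% of all genes.

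Slco3a1 was lower on all 3 TG esophagi, at 1.34, 1.74 and 1.90, against 2.53, 2.00 and 2.19 on the CTR esophagi. The difference was -0.58 (SE 0.26, 95% interval -1.16 to -0.00) and did not pass (limma adjusted p = 1). Without esophagi TG1 and CTR1 it was -0.28, and within the slide that held TG1 and CTR2 it was -0.66. Markers of neighbouring tissues also varied between these esophagi, without a test: summed levels of 5 heart markers were 7.99 to 9.33 in TG and 16.2 to 181 in CTR esophagi, 5 airway markers 0.928 to 109 and 28.8 to 254, and 6 fat markers 31 to 118 and 91.3 to 148. The groups overlapped for airway and fat markers and not for heart markers. Their part in the Slco3a1 difference was not tested.

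On its brighter probe Slc22a18 was higher on all 3 TG esophagi, at 2.43, 1.89 and 2.10, against 1.73, 1.87 and 1.78 on the CTR esophagi. The 1.89 on TG2 lay just above the 1.87 on CTR2. The difference was 0.35 (SE 0.18, 95% interval -0.06 to 0.75; limma adjusted p = 1), and 0.17 without esophagi TG1 and CTR1. The second probe of Slc22a18 was above background on all arrays and overlapped between TG and CTR esophagi, with a difference of 0.06 (SE 0.27). Of the others with the smallest p, Slc22a6 differed by 0.41 (SE 0.43), Slc22a21 by 0.19 (SE 0.20), Slc22a26 by -0.70 (SE 0.53) and Slc22a30 by -0.33 (SE 0.27).

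Hepatocyte transcripts were at trace levels in the esophagi, and their summed levels, given above, overlapped between TG and CTR. Albumin (Alb) stood at -4.58, -5.54 and -4.83 in TG and -3.26, -1.22 and -1.32 in CTR esophagi, and 6 of 11 hepatocyte markers were above background on all TG esophagi against 10 of 11 on all CTR esophagi. Slc10a1 differed by -0.47 (SE 0.44) and Slco1a4 by -0.66 (SE 0.62) in the same direction, both within the spread of the arrays, while Slc22a7 differed by 0.15 (SE 0.43). The part of liver transcripts in these values was not tested.

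The difference between the 2 effects, liver minus esophagus, was called for 0 of 32 carriers, as for 0% of 24438 genes. By limma 1 carrier had an unadjusted p under 0.05, against 4.98% of all genes. That carrier was Slco3a1, with an effect of 0.26 (SE 0.26) in liver and -0.58 (SE 0.26) in esophagus, differing by 0.84 (SE 0.37, adjusted p = 0.943).

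**Figure D3:**
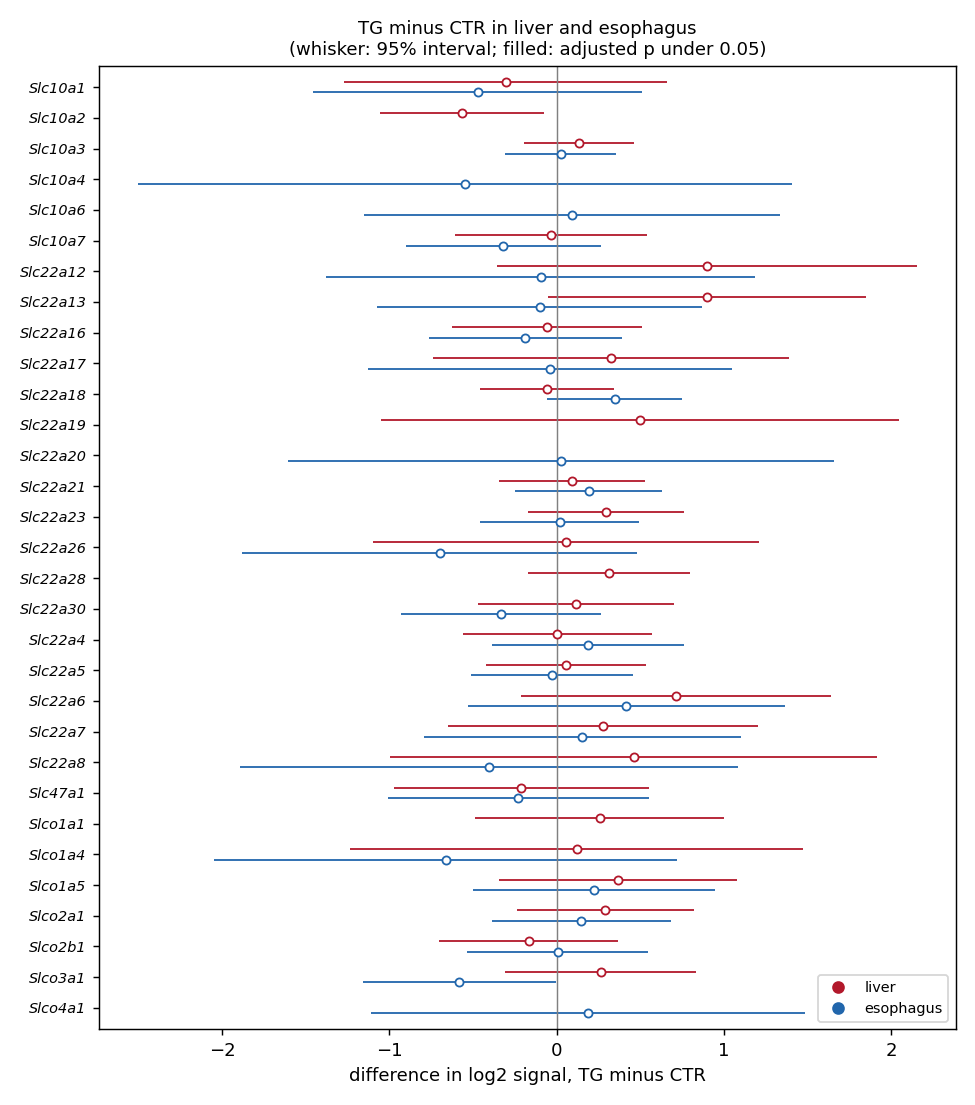
Difference in log2 signal between TG and CTR mice (horizontal axis) for the tested carriers reported, with liver above esophagus in each row. Points are limma estimates with 95% intervals, all drawn open since 0 passed; Slc10a2 in liver and Slco3a1 in esophagus have intervals that end just below 0, at -0.08 and -0.00.

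None of the genes of the lists around the carriers passed in liver either, by limma over all genes tested. Cyp27a1, which starts the acidic path of bile acid synthesis, differed by -0.84 (SE 0.27, adjusted p = 0.574) between TG and CTR livers, and Cyp8b1, which sets cholic acid, by -0.86 (SE 0.46, adjusted p = 0.625). Bsg, a chaperone of monocarboxylate carriers, was at -0.72 (SE 0.18, adjusted p = 0.574) and Ptges at 1.07 (SE 0.31, adjusted p = 0.574). Of 15 synthesis genes 10 had a higher TG mean, of 13 pumps 9, of 15 sensors 11, of 9 carnitine genes 2, of 5 prostaglandin genes 3 and of 7 scaffold genes 4. Over all genes tested it was higher for 14122 of 21247.

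Single livers differed more than the genotypes in several carriers, chosen after their values were seen. Slc22a8 was at 0.10, 0.52 and -1.60 in TG livers and 0.18, -1.20 and -1.35 in CTR livers, with TG1, TG2 and CTR1 high and its 2 other probes not above background on any array. Slc22a29, a neighbour of Slc22a28, was at -3.14, -6.65 and -2.44 in TG livers and -5.50, -0.31 and -3.58 in CTR livers, so that CTR2 stood above the rest. Livers TG2 and CTR1, with low Per2, were also the lowest of their groups in Slc47a1, Slco1a4 and Slc22a29, and Slc22a7 was highest of all in TG2 and lowest of all in CTR2. Liver TG3 was the highest liver in Slc10a4, Slc22a14, Slc22a20, Slco5a1 and Slco6c1, which are dim.

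**Figure D4:**
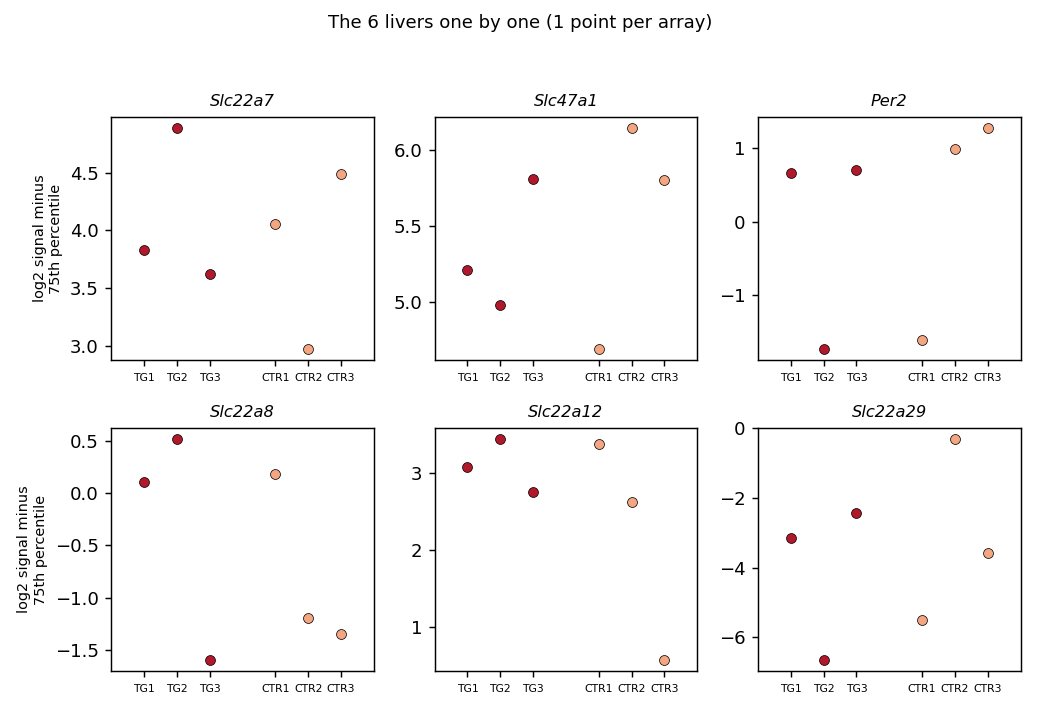
Normalized log2 signal (vertical axis, its own scale in each panel) of 5 carriers and the clock gene Per2 on each of the 6 livers, TG left of CTR. Each point is 1 array; livers TG2 and CTR1 are lowest in Per2, at -1.73 and -1.60, and liver CTR3 is lowest in Slc22a12, at 0.58.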

How the data were processed

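The authors deposited 1 scanner file for each of the 12 arrays, holding linear intensity readings per spot, made by Agilent Feature Extraction 10.7.1.1 with background subtraction and no scaling between arrays, per the file headers. They also deposited log2 values of all arrays. All its columns share the median 7.27, 0 lacked a sample, and limma is named without a version in the submitters' processing notes. Per the labels' protocols, livers were extracted in Trizol and cleaned on a column, and esophagi with a fibrous tissue kit. Replicates are mice, 3 per genotype.

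Control spots and 1311 outlier spots were left out, 0 spots were saturated, and spots of 1 probe were averaged. Each value is the processed signal on the log2 scale, less that array's 75th percentile. Accessions named 23374 probes through RefSeq (GRCm38.p6), and the brightest of several probes stood for a gene; 9 carriers had 2 probes and 1 had 3. The array was annotated on mm8, so the coordinates of the promoters alone are given, from RefSeq. All arrays entered 1 limma fit (limma 3.58.1, R 4.3.3, 4 groups, 8 residual degrees of freedom) with 5 contrasts, two-sided, adjusted by Benjamini-Hochberg at 0.05 over the genes tested in each. The procedure was tested on simulated data. Tables and figures used jsonlite 2.0.0, data.table (version 1.17.8), Python 3.11.15, pandas 2.3.3 and matplotlib 3.10.9.

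Values on every array are given for 10 carriers always, for the 3 smallest p per direction in each organ and for the 10 largest organ differences per direction past the threshold in CTR; of each surrounding list up to 4 genes per contrast are named. Some items that these rules take in are counted but not reported here. The members, lists and tests were chosen with earlier results of these data known, and motifs were chosen after the organ differences were seen. The labels give liver and esophagus of 1 mouse the same animal number, which pairs the organs, and deviations from the group means correlated at -0.0429 to 0.189 within an animal. TG and CTR mice share only a number (-0.402 to 0.155). The normexp alternative used the median signal, since the files hold 0 columns of mean signal.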

Additional observations from a re-analysis of the deposited data

How the results depend on the processing

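No count of called carriers moved by over 1.5 times under any alternative run. TG minus CTR stayed at 0 in both organs and for their difference. Liver minus esophagus ran from 17 to 29 in TG mice and from 18 to 25 in CTR mice. These ranges include the fits that left out single arrays, livers TG2 and CTR1, or esophagi TG1 and CTR1. With the replicate block by animal 25 carriers were called in TG and 23 in CTR mice, and with the replicate block by number 25 and 23; it changed no other call count. Slc10a4 in TG mice lost its call without livers TG2 and CTR1. In CTR mice 16 carriers, not 17, were called higher in liver without esophagus CTR3 and without esophagi TG1 and CTR1. The strict filter, which tests fewer dim genes, left 15 higher and 2 lower in TG and 16 and 2 in CTR mice. Without livers TG2 and CTR1, 32 genes passed for liver TG minus CTR, and 0 of them were carriers. Uncalled TG minus CTR values near 0 turned sign, and the cause was not tested. In liver, Slco1a4 was at -0.34 with slide as a fixed block, -0.47 with array weights, -0.0313 without TG2 and CTR1 and -0.31 without TG3 and CTR3 (an alternative chosen after seeing the data). With slide as a fixed block Slco2b1 was at 0.12, Slc22a5 was at -0.11 with array weights and -0.19 without TG3 and CTR3, and Slc22a7 at -0.0026 without TG2 and CTR1. In esophagus Slco2b1 was at -0.0389 with normexp and -0.0574 in the authors' deposited table, Slc22a5 at 0.0203 in that table and 0.30 with the slide block, and Slc22a7 at -0.0606 with normexp, -0.32 with the slide block and -0.0637 without TG1 and CTR1. Leaving out single arrays gave -0.40 to 0.52 for Slco1a4, -0.17 to 0.21 for Slc22a5, -0.16 to 0.60 for Slc22a7 and -0.64 to 0.0887 for Slc47a1 in liver, and -0.21 to 0.12 for Slco2b1, -0.12 to 0.31 for Slco2a1, -0.19 to 0.0798 for Slc22a5 and -0.026 to 0.42 for Slc22a7 in esophagus. Dim probes limit the sizes of the widest organ differences, and 3 arrays per group limit the rest.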
